A study of Bos taurus with 8 samples.

Results

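The genes described here are 9 components of the interleukin 22, interleukin 17 and STAT3 signalling route: the receptor subunits IL22RA1, IL10RB, IL20RB, IL17RA and IL17RC, the kinases JAK1 and TYK2, the transcription factor STAT3 and the inhibitor SOCS3. They were taken by gene name from arrays holding 15008 probes for 14962 differently named genes, and each of the 9 had 1 probe. They were selected on their place in this route and with earlier results of these data known, the diet difference of IL22RA1 among them, so the differences between diets in these 9 genes are given as a description without a test. A gene counts as tested when its probe stood well above background on 4 or more of 8 arrays; 8 of the 9 genes met this, and SOCS3 did not.

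The RNA came from rumen epithelium of rumen-fistulated Holstein bulls fed a high-grain diet. In the control diet the grain was corn flakes, and in the other diet kraft pulp of wood (WP), a fibre rich in cellulose, replaced part of the corn flakes. The study used 5 bulls (7.4 ± 0.3 months, 215.2 ± 20.4 kg) in a cross-over without wash-out, with 14 days on each diet, and 8 arrays from 4 of these animals, calves 21, 23, 24 and 25, were analysed here, 1 per calf and diet. Which diet a calf received first was not known here, so diet and period cannot be told apart within a calf, and both diets are high in grain.

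Interleukin 22 is made by lymphocytes and acts on epithelial cells, which carry its receptor, a pair of IL22RA1 and the widely shared subunit IL10RB. The receptor's kinases JAK1 and TYK2 phosphorylate STAT3, which enters the nucleus and raises genes of survival, acute-phase and antimicrobial defence, among them SOCS3, which in turn blocks the kinases. IL17RA and IL17RC form the receptor of interleukins 17A and 17F, which acts through the adaptor TRAF3IP2 and NF-kappa-B and raises neutrophil chemoattractants and antimicrobial peptides in epithelium. STAT3 is controlled largely by phosphorylation, which an RNA array does not measure.

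A level is log2 of the processed signal of a probe minus log2 of the 75th percentile of its array, so that 0 lies at that percentile; levels of different probes are not set against each other. The number of probes well above background ran from 9314 to 11917. The array of calf 24 on WP stood apart: the median of its negative control spots was 4.06, against 1.20 to 1.90 on the other 7, and of 1851 probes above background on exactly 1 array, 1461 (78.9%) were above it there. Of 14 markers of stratified epithelium, 12 were above background on all 8 arrays, among them KRT5, KRT14 and TP63, KRT4 was above it on 1 array and KRT13 had no probe. Summed on the linear scale, the level of these markers was 641 to 750 times the 75th percentile on control arrays and 513 to 748 times on WP arrays. Leukocyte markers were present too: 11 of 24 were above background on all 8 arrays, ITGAM and MS4A1 on none, and their summed level was 11.6 to 17.1 on control and 11.2 to 18.0 on WP arrays. In such tissue, fewer cells of a type and less RNA per cell cannot be told apart.

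What each probe reads is set by its 60 bases. The end of the IL22RA1 probe and the repeat in the TYK2 probe are shown because of features found in their letters, and the IL17RA and SOCS3 probes because few arrays measured them above background. Sequences are those of the array design, 5′ to 3′, with positions on UMD 3.1 (bosTau6); exon and UTR annotation was not analysed here. Capitals mark AATAAA, the usual polyadenylation signal, in IL22RA1 (bases 31 to 60 of the probe, chr2:129378125-129378154, plus strand) and the TG repeat in TYK2 (bases 31 to 60, chr7:16104678-16104707, minus strand). IL17RA (chr5:109390165-109390224, plus strand) and SOCS3 (chr19:54459441-54459500, plus strand) are whole.
IL22RA1: ggcacatgggccatgcccAATAAActagta
TYK2: cttTGTGTGTGTGTGTGTGTGTGTaagcac
IL17RA: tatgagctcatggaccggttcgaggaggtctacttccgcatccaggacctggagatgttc
SOCS3: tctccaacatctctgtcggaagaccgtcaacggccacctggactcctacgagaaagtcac
The letters AATAAA, searched as written on the probe strand, were in 1427 of 15008 probes (9.51%) and in 1 of these 9. The other 5 probes lay at chr1:1577722-1577781 (IL10RB, minus), chr1:133285345-133285404 (IL20RB, minus), chr22:16878001-16878060 (IL17RC, minus), chr19:43057415-43057474 (STAT3, minus) and chr3:80914220-80914279 (JAK1, plus).

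The ligands that open this route were at or below detection in most arrays. Of 12 ligands listed for the interleukin 10, 20 and 17 families, 11 had a probe (IL17C had none). Only IL10, IL17D and IL25 were above background on all 8 arrays, IL17B was above it on 3, IL19 and IL24 on none, and the other 5 on a single array each. IL22 was above background on the control array of calf 21 alone, with a processed signal of 9.70 against 1.54 to 4.44 on the other 7 arrays. IL17A and IL17F were above background on that same array alone, with signals of 7.54 and 17.5 against 0.988 to 9.19 and 1.61 to 6.64 elsewhere. The highest of the other IL17A signals, 9.19 on the WP array of calf 24, was larger than the one called above background, on the array with the brightest negative controls. IL26 and IL20 were above background on the WP array of calf 24 alone.

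**Figure D1:**
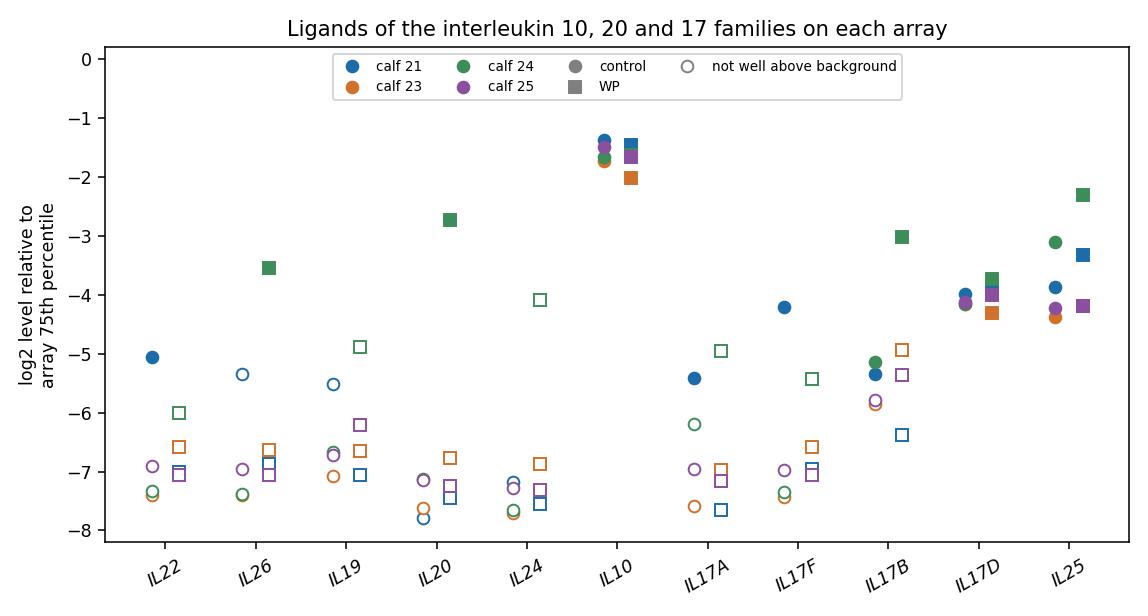
Log2 level relative to the array's 75th percentile (vertical axis) of the 11 ligands with a probe; circles are control arrays, squares WP arrays, colours the 4 calves, and an open symbol is not well above background. IL22, IL17A and IL17F have 1 filled symbol each, the control array of calf 21, and IL26 and IL20 have 1 each, the WP array of calf 24.

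Leukocyte markers on the control array of calf 21 were mixed. It was the highest of the 4 control arrays for 9 of 15 tested leukocyte markers, 7 of 9 fibroblast markers and 0 of 12 epithelial markers, against 24.4% of all tested probes. LCP1, an actin-bundling protein of blood cells, had a level of 1.73 on it against -0.39 to 0.13 on the other control arrays, while ITGB2, an integrin of leukocytes, was lowest on it, at 1.71 against 2.21 to 2.43. The part of these cells in the 3 ligand signals was not tested. Of the detected ligands, IL10, an anti-inflammatory cytokine, differed between diets by -0.13 ± 0.13 (log2, WP minus control, SD of 4 within-calf differences), IL17D by 0.12 ± 0.23, which turned to -0.58 with quantile and -0.31 with cyclic loess scaling, and IL25, a cytokine of type 2 responses, by 0.39 ± 0.34. IL25 was higher on WP in 4 of 4 calves, and its group means differed by -0.10 within row 1 and 0.88 within row 2 of the slide. Row 1 held the WP arrays of calves 21 and 23 and the control arrays of calves 24 and 25, and row 2 the reverse. Differences within a row therefore compare different calves, and IL25 was highest in calf 24 on both diets.

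No probe of the array passed the test between the diets: 0 of 10236 tested probes (0%) had an adjusted p under 0.05 in the limma fit that pairs the arrays of a calf, where the lowest was 0.658. Without adjustment, 179 probes (1.75%) were lower and 536 (5.24%) higher on WP at a p under 0.05. The median difference over all tested probes was 0.09 (log2), and with quantile and cyclic loess scaling it was -0.02 and 0.00, so a difference near 0.1 depends on the scaling.

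IL22RA1, the subunit that makes a cell responsive to interleukin 22, was lower on WP in every calf. Its control levels were -0.17, -1.48, -0.68 and -0.24 in calves 21, 23, 24 and 25, and its WP levels -1.98, -1.93, -2.24 and -1.17. Calf 23 was low on the control diet too, below the WP level of calf 25, so the groups overlapped. The within-calf differences were -1.81, -0.45, -1.56 and -0.93, a mean of -1.19 ± 0.61 (SD, n = 4), or 2.28 times higher on the control diet. Of 10194 tested probes measured on all 8 arrays, 36 (0.353%) had a mean difference as low or lower. Since IL22RA1 was chosen with this difference known, that share is a description only. The processed signals were 103 to 287 on control and 50.5 to 104 on WP arrays, and with normexp background correction, which adds an offset to the signal, the difference was -0.67. Leaving out any 1 calf gave -1.44 to -0.98. The difference of group means was -1.50 within row 1 and -0.88 within row 2 of the slide, where different calves are compared. Beside it, the 12 tested epithelial markers had a median difference of -0.06. They ranged from -1.07 (IVL) to 0.50 (KRT10), with 7 below 0 and 5 above. The medians were 0.61 for 9 fibroblast, 0.41 for 8 endothelial, 0.46 for 5 smooth muscle and -0.04 for 15 leukocyte markers. In calf 21, where IL22RA1 differed most, the leukocyte, fibroblast and endothelial medians were -0.61, -0.31 and -0.34, and the epithelial and smooth muscle medians were 0.09 and 0.24. The part of tissue make-up in the IL22RA1 value was not tested.

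IL10RB, the shared subunit that completes the receptors of interleukins 10, 22 and 26, was also lower on WP in 4 of 4 calves, by less. Its control levels were -0.95, -0.32, -0.51 and -0.93 and its WP levels -1.30, -0.62, -0.75 and -1.57 in calves 21, 23, 24 and 25. The calves kept a similar order on both diets and the groups overlapped. The differences of -0.35, -0.31, -0.24 and -0.64 averaged -0.38 ± 0.18 (SD, n = 4), or 1.31 times higher on the control diet, and the SD was smaller than that of all but 17.7% of tested probes. With IL22RA1, both chains of the interleukin 22 receptor thus had lower values on WP in each calf.

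IL20RB, which pairs with IL20RA or IL22RA1 in receptors for interleukins 19, 20 and 24, did not share this direction. Its levels were -2.03, -1.31, -2.27 and -2.39 on control and -1.95, -1.92, -1.80 and -2.22 on WP in calves 21, 23, 24 and 25. The WP values lay within the control range, and 1 calf was lower and 3 were higher. The mean difference was 0.03 ± 0.46, and its sign turned with quantile (-0.10) and cyclic loess scaling (-0.08). IL20RA, its partner, gave 0.20 ± 0.30, and IL10RA, the chain specific to interleukin 10 and typical of leukocytes, 0.06 ± 0.39 with 2 of 4 WP arrays above background, a value that turned to -0.67 with quantile and -0.45 with cyclic loess scaling.

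IL17RA, the common subunit of the interleukin 17 receptors, was close to background, so its size of change is not set. Its probe was well above background on 3 control arrays (calves 21, 23 and 24) and on 1 WP array (calf 24). The control levels were -3.92, -3.31, -4.06 and -4.84 and the WP levels -5.50, -5.89, -3.48 and -5.80 in calves 21, 23, 24 and 25. Calf 24, whose WP array had the raised background, went the other way from the rest: the differences were -1.58, -2.58, 0.58 and -0.96, a mean of -1.14 ± 1.33 (SD, n = 4). Without calf 24 the mean was -1.71, without calf 23 it was -0.65, and with normexp background correction it was 0.033. The part of the raised background in this gene's WP value in calf 24 was not tested.

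IL17RC, the chain that pairs with IL17RA for interleukins 17A and 17F, was above background on the control and WP arrays of calf 21, the control array of calf 23 and the WP array of calf 25. Its levels were -4.61, -5.01, -5.28 and -4.72 on control and -4.74, -5.13, -3.70 and -4.24 on WP. The differences, -0.14, -0.12, 1.58 and 0.48, had no common direction, and their mean of 0.45 ± 0.81 was 0.074 without calf 24 and -0.29 with quantile scaling. Of the downstream adaptors, TRAF5 was above background on no array. TRAF3IP2, which links the receptor to NF-kappa-B, differed by -0.05 ± 0.10, and TRAF6, the ubiquitin ligase after it, by -0.02 ± 0.04 (SD, n = 4). TRAF2 gave 0.20 ± 0.33 and IL17RE, the receptor chain for interleukin 17C, 0.49 ± 0.67.

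**Figure D2:**
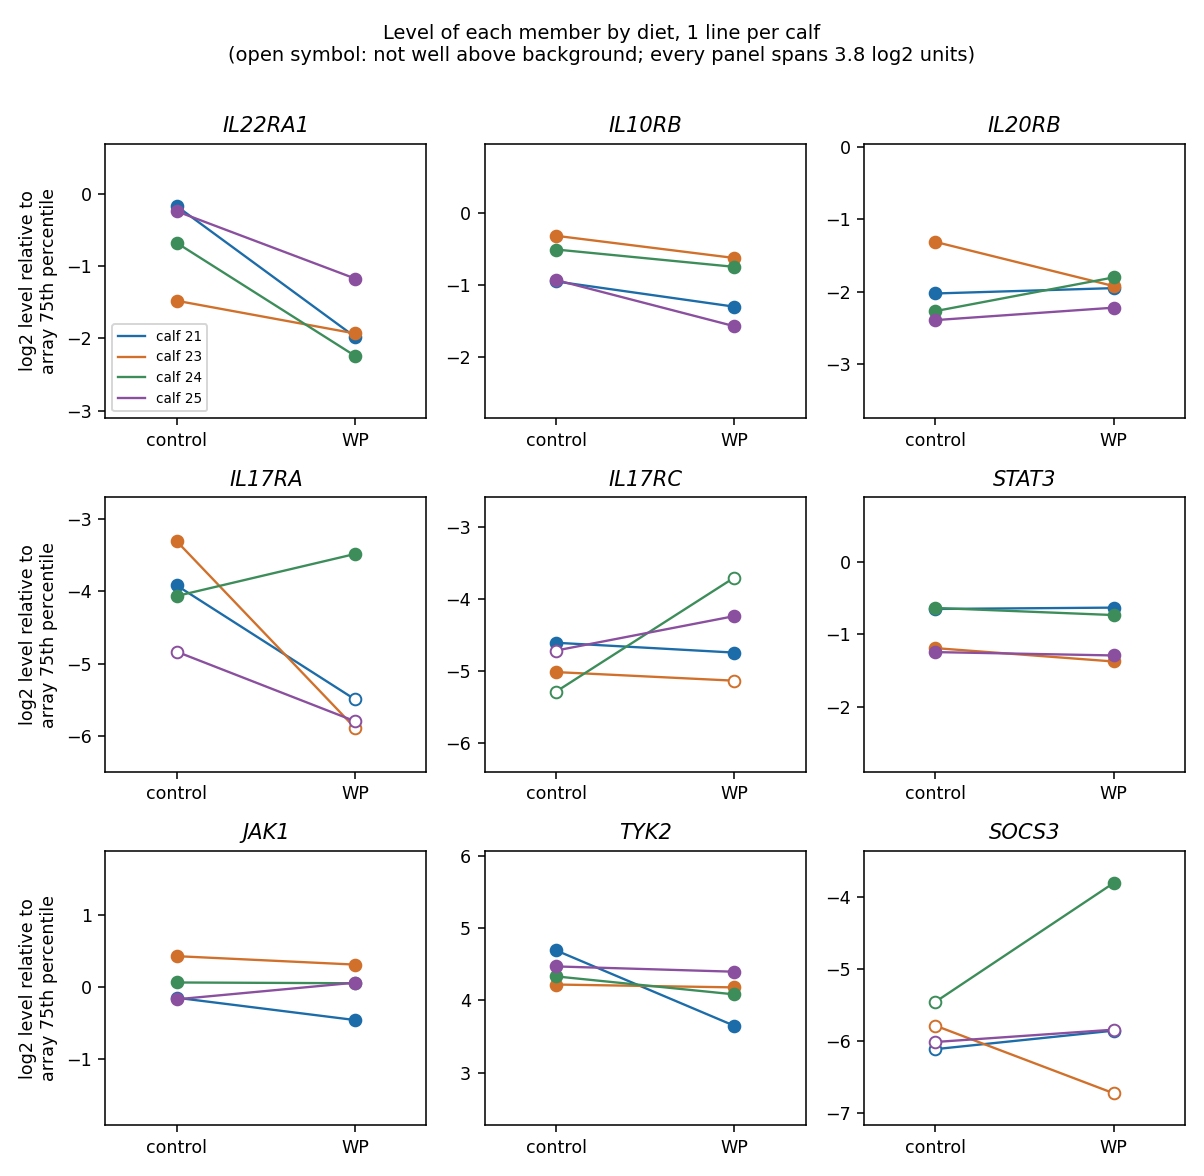
Log2 level relative to the array's 75th percentile (vertical axis, every panel the same span) of each of the 9 genes on the control and WP diets, 1 line per calf; open symbols are not well above background. All 4 lines slope down for IL22RA1, IL10RB and TYK2, the lines of STAT3 form a high pair (calves 21 and 24) and a low pair, and 4 of 8 symbols are open for IL17RA and for IL17RC, as are all but 1 for SOCS3.

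STAT3, the transcription factor at the centre of the route, differed between calves more than between diets. Its control levels were -0.65, -1.19, -0.63 and -1.24 and its WP levels -0.63, -1.37, -0.73 and -1.29 in calves 21, 23, 24 and 25. Calves 21 and 24 were high on both diets and calves 23 and 25 low on both, so the diet groups overlapped almost fully. The differences of 0.02, -0.19, -0.10 and -0.05 averaged -0.08 ± 0.09 (SD, n = 4). The range of the 4 calf means was 0.64, or 3.48 times the largest within-calf difference, a ratio reached by 90 of 10194 tested probes (0.883%). Both arrays of a calf lay in the same column of the slide, and each calf had its own column. Differences between calves and between slide columns therefore cannot be told apart.

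JAK1, the kinase bound to IL22RA1, had levels of -0.15, 0.43, 0.06 and -0.17 on control and -0.46, 0.31, 0.05 and 0.06 on WP in calves 21, 23, 24 and 25. Calf 23 was the highest on both diets. The differences of -0.31, -0.12, -0.01 and 0.23 gave -0.05 ± 0.22, and the mean was 0.034 without calf 21. As for STAT3, the calf means spread further than the diets, by 2.18 times the largest within-calf difference, a ratio reached by 3.93% of tested probes. Here too calf and slide column cannot be told apart. JAK2, a kinase of other cytokine receptors, gave 0.06 ± 0.20.

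TYK2, the kinase bound to IL10RB, was lower on WP in 4 of 4 calves, but 1 calf carried most of the mean. Its levels were 4.69, 4.22, 4.33 and 4.47 on control and 3.65, 4.18, 4.08 and 4.40 on WP in calves 21, 23, 24 and 25. The WP array of calf 21 was the lowest of the 8 and its control array the highest. The 7 arrays other than the lowest lay between 4.08 and 4.69, with the groups overlapping. The differences of -1.04, -0.04, -0.25 and -0.07 averaged -0.35 ± 0.47, and without calf 21 the mean was -0.12.

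Thus 3 of the 8 tested genes, IL22RA1, IL10RB and TYK2, were lower on WP in 4 of 4 calves, where 5.41% of all tested probes were and 12% were higher in 4 of 4. In none of the 8 did the groups fail to overlap in the lower direction, against 1.19% of all tested probes. Since these genes were chosen with such values known, nothing is read from the counts. With 1 calf left out in turn, the number lower in all remaining calves was 4 without calf 21, 3 without calf 23, 4 without calf 24 and 4 without calf 25, where 7.96%, 9.10%, 10.8% and 10.8% of tested probes were.

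**Figure D3:**
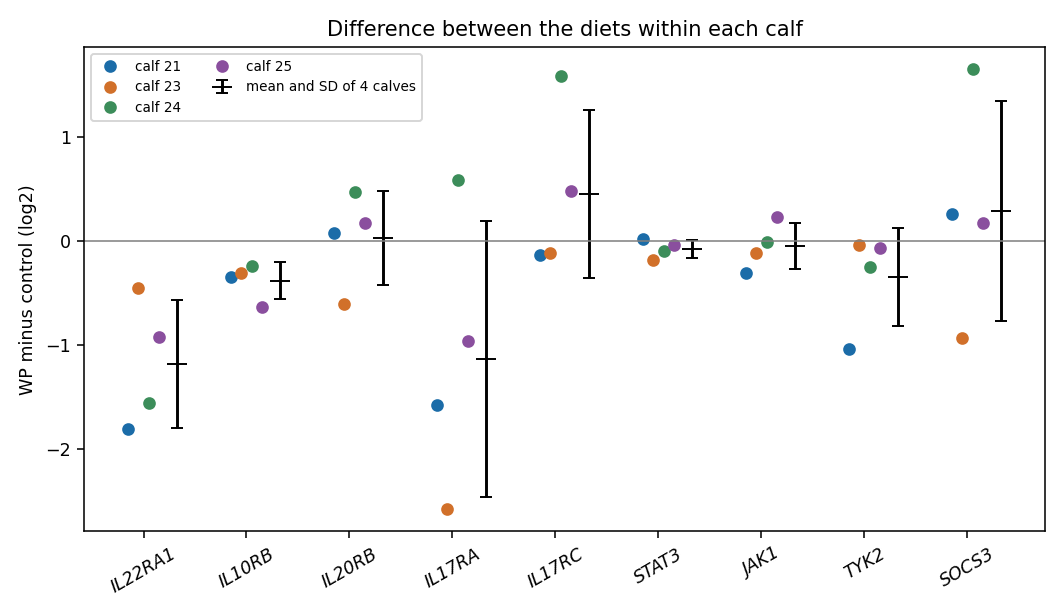
WP minus control (log2, vertical axis) within each calf for the 9 genes; coloured points are the 4 calves and the black bar is their mean and SD. IL22RA1 lies below 0 in all calves with a mean of -1.19, the points of STAT3 lie between -0.19 and 0.02, and IL17RA, IL17RC and SOCS3 spread on both sides of 0.

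The TYK2 probe differs from the other 8 in its letters, and the levels of a few probes that share them rose and fell with it over the arrays. Its run of alternating T and G is 21 bases long. On the whole array 6 probes hold such a run of at least 14 bases, and the 5 others are those of S1PR2, SPAG7, PBXIP1, AGAP3 and TK1. This feature was looked for after the values were seen. The parts of the MCAM (bases 1 to 30, chr15:30414580-30414609, minus strand), PBXIP1 (bases 17 to 46, chr3:15699029-15699058, plus strand) and S1PR2 (bases 22 to 51, chr7:15975158-15975187, minus strand) probes that hold their longest TG run, in capitals, are shown because these 3 correlated best with TYK2.
MCAM: ctgcgtgtaTGTGTGTGTGcgtgtgtgtat
PBXIP1: agagaactTGTGTGTGTGTGTGTctgtctg
S1PR2: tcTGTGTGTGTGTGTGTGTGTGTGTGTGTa
Across the 8 arrays the level of TYK2 correlated with MCAM at r = 0.994, PBXIP1 at 0.986 and S1PR2 at 0.981, the 3 highest of 10235 other tested probes. MCAM encodes a cell adhesion molecule and S1PR2 a sphingosine 1-phosphate receptor. The S1PR2 and TYK2 probes lie on the same chromosome and strand, from chr7:15975158 and chr7:16104678. The part of shared letters or of position in these correlations was not tested. Of the 5 other probes with a run of at least 14 bases, 3 had an r of at least 0.9, as had 19 tested probes (0.186%); AGAP3 gave 0.918, TK1 0.749 and SPAG7, whose run is 16 bases, 0.107. By the count of TG pairs alone, the 966 tested probes with 8 or more had a median r of -0.12 with TYK2, against -0.17 over all tested probes. The 20 probes of highest r had a median of 6 pairs against 5. Of these 20, 7 had 8 or more pairs, against 9.44% of all tested probes. All 5 other probes with a run of at least 14 bases were bright, with mean levels from 3.32 to 6.29. The points of such a correlation share arrays, calves and scaling, and it is given as a description.

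The diet difference of TYK2 lay near that of most of these probes. MCAM, PBXIP1 and S1PR2 correlated best with TYK2 over these same arrays, so their like differences and extreme arrays are not a separate result. The longest run of the MCAM probe, 10 bases, is below the limit of 14. MCAM differed by -0.42 ± 0.48, PBXIP1 by -0.37 ± 0.40, S1PR2 by -0.28 ± 0.39, TK1 by -0.35 ± 0.27 and AGAP3 by -0.24 ± 0.51 (log2, WP minus control, SD, n = 4), while SPAG7 gave 0.01 ± 0.15. For MCAM, PBXIP1, S1PR2 and AGAP3, as for TYK2, the control array of calf 21 was the highest of the 8 and its WP array the lowest. Whether the signal at the TYK2 probe comes from TYK2 transcripts alone was not tested.

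**Figure D4:**
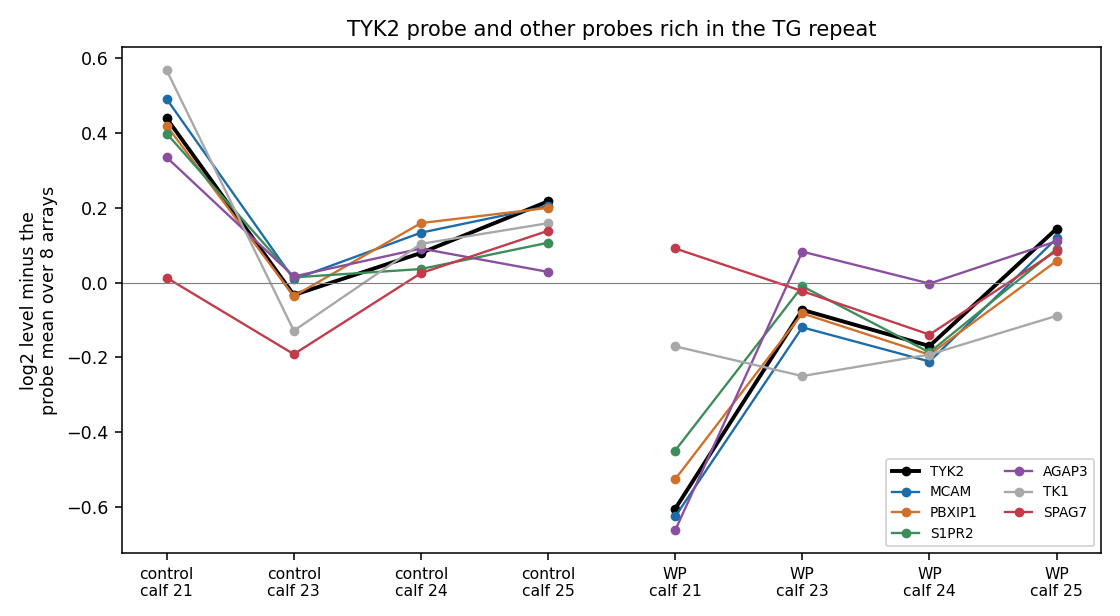
Log2 level of the TYK2 probe and of 6 other probes rich in the TG repeat, each minus its own mean over the 8 arrays (vertical axis), for the control and WP arrays of the 4 calves (horizontal axis). MCAM, PBXIP1 and S1PR2, the probes that correlated best with TYK2 over these arrays, follow it from the high control array to the low WP array of calf 21. SPAG7 does not.

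SOCS3, the feedback inhibitor that STAT3 itself raises, was not measurable on most arrays. Its probe was well above background on the WP array of calf 24 alone, at a level of -3.81, and that array had the raised background. The other levels, -6.11, -5.79, -5.46 and -6.01 on control and -5.86, -6.73 and -5.84 on WP in calves 21, 23 and 25, were not well above background and have no order. No fold is given for it. The family members SOCS1, SOCS2, CISH and SOCS4 were above background on all 8 arrays and gave 0.13 ± 0.24, 0.21 ± 0.61, -0.01 ± 0.35 and -0.04 ± 0.31, the last of them -0.76 with quantile and -0.48 with cyclic loess scaling.

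The wider route held no gene past the adjusted threshold in either direction in any list. Among the interleukin 10 and 20 receptors 2 of 5 tested genes had a mean difference below 0, among interleukin 17 receptors and adaptors 3 of 7, among JAK kinases 2 of 3, among STAT factors 2 of 5, and among SOCS and other inhibitors 7 of 12. The median differences of these 5 lists were 0.03, 0.16, -0.05, 0.24 and -0.02, against 0.09 over all tested probes, of which 35.6% had a mean difference below 0. With quantile scaling the medians of the interleukin 10 and 20 receptors, interleukin 17 receptors and STAT factors were -0.41, -0.02 and -0.11. STAT2, a factor of interferon signalling, gave -0.17 ± 0.26, STAT4, a factor of lymphocytes, 0.35 ± 1.15, and STAT6, the interleukin 4 factor, 0.24 ± 0.43, which was -0.18 with quantile scaling. Among the inhibitors the widest difference was that of PTPN6, a phosphatase of blood cells and epithelium, named here after its values were seen: its levels were 4.86, 5.29, 3.94 and 4.08 on control and 2.69, 3.66, 3.26 and 4.19 on WP, and calf 25 was not lower on WP, for a mean of -1.09 ± 1.01.

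The interleukin 6 family, the other main input to STAT3, had 2 of 8 tested genes below 0, near the 35.6% of all tested probes, and a median of 0.27, or 0.19 with quantile scaling. IL6R, the interleukin 6 receptor, had levels of -0.95, -0.90, -0.85 and -0.86 on control and -0.66, -0.67, -0.39 and -0.54 on WP in calves 21, 23, 24 and 25. Every WP array was higher than every control array, which held for 3.67% of tested probes in that direction. The difference of 0.32 ± 0.10 (SD, n = 4, limma adjusted p = 0.658) stayed positive with all 11 alternatives, from 0.19 within slide row 1 to 0.46 within slide row 2. Both row values compare different calves. Its signalling partner IL6ST gave 0.19 ± 0.55 and LIFR, the receptor of leukaemia inhibitory factor, 0.53 ± 0.61. OSM, a leukocyte cytokine of the family above background on 3 arrays of each diet, was higher on WP in 4 of 4 calves by 0.81 ± 0.49, but by 0.09 with quantile and 0.25 with cyclic loess scaling. The probe of OSMR, the oncostatin M receptor, named after its values were seen, passed background on 3 of 4 WP arrays and gave -0.70 ± 1.01.

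STAT3 target genes showed no common direction. Of 15 tested, 8 had a mean below 0 and 7 above, with a median of -0.04. The survival factor MCL1 differed by 0.01 ± 0.07, the cell-cycle genes MYC and CCND1 by 0.29 ± 0.79 and 0.08 ± 0.34, and the survival factor BCL2L1, above background on 5 arrays, by 0.05 ± 1.98. In 2 of the 15 the WP level was lower in every calf, as in 5.41% of all tested probes: PIM1 (a survival kinase, -0.42 ± 0.32) and HIF1A (the hypoxia factor, -0.14 ± 0.14), both named after their values were seen.

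The interleukin 17 target genes of epithelium had mean differences below 0 in all 9 that were tested, of 14 with a probe, where 35.6% of all tested probes had one. Of the 9, 4 were lower on WP in 4 of 4 calves, where 5.41% of all tested probes were. The list was chosen with earlier results of these data known, so nothing is read from either count. The list's median was -0.26, and by calf it was -1.79, -0.42, -0.81 and -0.17 in calves 21, 23, 24 and 25. Leaving out calf 25 gave -1.12, and the list's median was -0.77 with quantile scaling. CXCL8, the main neutrophil chemoattractant, had levels of -1.39, -3.89, -3.33 and -3.27 on control and -6.86, -5.24, -5.67 and -4.88 on WP, where it was above background on 1 of 4 arrays, so that its groups did not overlap but no size can be given. ZC3H12A, the RNase that limits interleukin 17 responses, gave -0.21 ± 0.18 and was lower in each calf. NFKBIZ, the co-activator of these targets, gave -0.26 ± 0.46, and CXCL5, above background on 2 arrays of each diet, -0.16 ± 2.72.

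Other targets, chosen after their values were seen, differed in which calf led. TAP, the tracheal antimicrobial peptide, had the widest mean difference of the list, -3.32 ± 3.18. Its calf 21 difference was -7.93, and calves 23, 24 and 25 gave -0.84, -2.84 and -1.66. The calprotectin subunit gene S100A8 had levels of 8.44, 5.92, 6.46 and 6.16 on control and 5.73, 5.41, 5.65 and 6.62 on WP in calves 21, 23, 24 and 25. Its control array of calf 21 stood above the other 7, and calf 25 went the other way, for a mean of -0.89 ± 1.33 (-0.29 without calf 21). IL36G, an epithelial cytokine of the interleukin 1 family, had control levels of -0.89, -1.20, -0.79 and -0.89 and WP levels of -2.67, -1.59, -3.35 and -2.94, with no overlap and calf 24 the furthest apart, a difference of -1.70 ± 0.93, or -0.88 with normexp correction. The control array of calf 21 was the highest control array for 5 of the 9 tested targets, and it is the array with the interleukin 17 and 22 signals; the part of leukocytes in these values was not tested. The median difference of the 15 tested leukocyte markers was -0.61 for calf 21, against 0.07, 0.60 and 0.32 for calves 23, 24 and 25.

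Genes of interleukin 23 and type 17 lymphocytes that were tested, 5 of 13 with a probe, all had a mean difference above 0, where 35.6% of all tested probes were below it. Their median was 0.37, which was 0.10 with quantile and 0.12 with cyclic loess scaling. This list too was chosen with earlier results of these data known, so nothing is read from the count. IL23A, the subunit specific to interleukin 23, had levels of -3.41, -3.67, -3.47 and -3.54 on control and -1.84, -3.66, -1.97 and -3.49 on WP in calves 21, 23, 24 and 25. Calves 21 and 24 differed by 1.57 and 1.50 and calves 23 and 25 by 0.01 and 0.05, for a mean of 0.78 ± 0.87. AHR, the aryl hydrocarbon receptor that drives interleukin 22 production in lymphocytes and is also active in epithelium, gave 0.37 ± 0.21 with higher levels on WP in 4 of 4 calves, but -0.31 with quantile scaling and 0.05 with cyclic loess scaling. RORA, a transcription factor of type 17 cells, gave 0.22 ± 0.27 and IL1R1, the interleukin 1 receptor, 0.06 ± 0.17.

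The genes whose levels over the 8 arrays were most like those of each tested member were taken by Pearson correlation among 9878 named genes, as a description over points that share arrays, calves and scaling. The 2 nearest were IGFBP4 (0.938) and USP14 (0.937) for IL22RA1, AMZ2 (0.954) and RNF130 (0.952) for IL10RB, GTDC1 and SIRT5 (both 0.922) for IL20RB, and MRPS27 (0.963) and NADK (0.935) for IL17RA. They were ARHGAP39 and ELF1 (both 0.966) for IL17RC, HIST1H2AH and MRPL23 (both 0.953) for STAT3, HPSE (0.990) and SMU1 (0.955) for JAK1, and MCAM and PBXIP1, given above, for TYK2. No member was among the 2 nearest of another. IL17RA and IL17RC were well above background on only 4 of 8 arrays each, so their correlations rest partly on background signal. The IGFBP4 probe is itself rich in TG, with 16 such pairs in its 60 bases, and correlated with TYK2 at 0.891.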

How the data were processed

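Rumen epithelium RNA of 4 calves on 2 diets was measured on 8 single-colour Agilent arrays of 1 slide, all scanned on 1 day. The deposited scanner files hold spot intensity, with a background-corrected processed signal and flags; per the file headers the software was Agilent Feature Extraction 11.0.1.1, and the submitters' processing notes give 9.5. A value table in log2 was also deposited by the authors, and its columns were the log2 processed signal of that array less a constant (slopes 0.99998 to 1.00, medians -3.07 to -2.26), within 0.01 for all probes of 6 columns, 14966 of 15007 for calf 21 on WP and 15007 of 15008 for calf 25 on control, so scale and direction were settled and no gene was centred.

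Log2 of the processed signal minus each array's 75th percentile was used. The 536 control spots per array and 97 outlier spots were left out, and no spot was saturated. Tested probes, 10236 of 15008, passed background on 4 or more of 8 arrays; 10194 of them had a value on every array. The number of arrays limits the precision. Probes were named through RefSeq (ARS-UCD2.0, names only): accessions named 11194, current symbols 3085 and older symbols 38, and 691 kept the design's name.

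WP was set against control in limma 3.58.1 (R 4.3.3, two-sided, Benjamini-Hochberg, threshold 0.05) with calf as a block, since labels give the same animals on both diets; deviations of a calf's 2 arrays correlated at 0.00897, 0.195, 0.0600 and 0.0475. The pipeline was tested on simulated data. The genes and lists were chosen with earlier results of these data known. Of each list, the first 4 other tested genes in a written order are named, and each ligand. A gene that this rule takes is not reported here. Errors are the SD of 4 within-calf differences. Alternatives covered background correction, scaling, filter, blocks, prior, source and each calf left out; counts of genes lower in all remaining calves were added after seeing the data.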

Additional observations from a re-analysis of the deposited data

Results flagged for a closer look

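Among 86 groups of 4 arrays (43 genes on each diet), 4 held an array far from the other 3 by Dixon's test, where chance gives about 1 in 20. IL17RA on WP was highest in calf 24, at -3.48 against -5.50 for the next array (ratio of gap to range 0.836). IL20RA on WP was lowest in calf 23, at 4.10 against 4.30 (0.96). TRAF3IP2 on WP was lowest in calf 24, at 1.75 against 1.96 (0.838). IL6ST on WP was highest in calf 21, at 0.03 against -0.45 (0.912).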

How the results depend on the processing

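No probe of the array passed an adjusted p of 0.05 with limma under any of 13 alternatives, the fit with no replicate block included, which gave 186 probes lower and 599 higher on WP at an unadjusted p under 0.05 against 179 and 536 with it. The lower count was 293 with normexp, 336 with quantile and 411 with cyclic loess scaling, 101 with no filter and 349 with slide row as a second block, and ran from 69 to 221 with a calf left out. The higher count was 1134 with normexp, 192 with quantile and 262 with cyclic loess scaling, and ran from 264 to 714 with a calf left out. Thus more probes were higher than lower in the main scaling and fewer in quantile and cyclic loess scaling; the cause was not tested. The differences of the 9 genes moved by less than 1 SD under all 11 alternatives. IL22RA1 (-1.50 to -0.67), IL10RB (-0.53 to -0.24), TYK2 (-0.49 to -0.12) and STAT3 (-0.13 to -0.03) kept their sign, while IL20RB, IL17RA, IL17RC, JAK1 and SOCS3 did not. A mean over several probes could not be taken, since each gene had 1. Signal over background limits IL17RA, IL17RC, SOCS3 and most ligands.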
